A study of Mus musculus with 30 samples.

Results

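Soy protein restriction was examined in livers from 12 male C57BL6/J mice, 6 fed the Soy-10% diet and 6 fed the Soy-20% + SAA diet, out of 30 livers from 5 diets in the series. Livers were taken as members by their diet label alone. The Soy-10% diet held 11.5% soy protein with 0.13 g methionine and 0.13 g cysteine per 100 g. The Soy-20% + SAA diet held 20% soy protein to which methionine and cysteine had been added, giving 0.58 g and 0.41 g per 100 g, so the compared diets differed in total protein and in sulfur amino acids (SAA) together, and these cannot be told apart. A further group, Soy-20%, had 20% soy protein without the addition, at 0.22 g of each amino acid, and was used here only as an alternative control. The labels name no engineered allele. All soy mice had eaten the Soy-20% diet before the switch at 12 weeks of age, stayed on their diet for 12 weeks and were killed at 6 months of age by the labels, after a 4 h fast. Each mouse gave 1 library of liver mRNA, so mice were the replicates. In these bulk samples a lower level cannot be told apart from fewer cells of the type that carries the transcript.

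Liver is the main site where methionine is turned into S-adenosylmethionine, the methyl donor, and where the sulfur of methionine passes to cysteine, glutathione and taurine. When amino acids are scarce, uncharged tRNA activates the kinase GCN2, phosphorylated eIF2 slows translation, and the transcription factor ATF4 is translated and switches on genes for amino acid synthesis, transport and stress adaptation. The hormone FGF21, made mainly by hepatocytes, is one output of this response. The same diets are known to lower lipogenic gene expression in liver.

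The letters of the amino acid response element, to which ATF4 and its partners bind, were looked for in gene promoters because several genes that rose most are known ATF4 targets. The motif searched was TGATGNAAN, on both strands, in windows of 300 bases running from 250 before to 50 after each transcription start (RefSeq, GRCm38.p6). It was present in 1299 of 32851 promoters (3.95%). Among the ATF4 target genes listed here with a promoter in that table, 11 of 30 held it, and so did *Fgf21*. Of the listed targets with the motif that were tested, *Asns*, *Nupr1*, *Pck2* and *Vldlr* were called higher on Soy-10% with all livers of both diets. In the same fit *Atf3* was called lower (log2 fold change −1.43), and *Chac1*, *Herpud1*, *Jdp2* and *Trib3* were not called. Holding the motif therefore did not by itself go with a rise. The promoters of 3 genes that were higher on Soy-10%, and of *Chac1*, which holds the motif but was not called, are shown 5′ to 3′ on the strand of the gene with the motif match in capitals. They lie at chr6:7693160-7693459 for *Asns* (minus strand), chr7:126625421-126625720 for *Nupr1* (minus strand), chr7:45615441-45615740 for *Fgf21* (minus strand) and chr2:119350992-119351291 for *Chac1* (plus strand).
Asns: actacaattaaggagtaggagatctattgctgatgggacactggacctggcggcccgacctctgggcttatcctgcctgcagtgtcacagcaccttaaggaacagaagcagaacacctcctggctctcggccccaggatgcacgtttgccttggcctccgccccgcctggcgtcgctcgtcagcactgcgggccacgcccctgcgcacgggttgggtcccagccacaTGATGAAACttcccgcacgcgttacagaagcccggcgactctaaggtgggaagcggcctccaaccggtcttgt
Nupr1: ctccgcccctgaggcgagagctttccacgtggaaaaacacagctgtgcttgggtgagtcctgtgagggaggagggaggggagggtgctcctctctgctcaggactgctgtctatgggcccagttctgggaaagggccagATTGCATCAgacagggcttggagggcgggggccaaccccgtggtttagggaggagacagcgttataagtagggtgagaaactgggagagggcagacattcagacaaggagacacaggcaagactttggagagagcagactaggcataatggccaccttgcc
Fgf21: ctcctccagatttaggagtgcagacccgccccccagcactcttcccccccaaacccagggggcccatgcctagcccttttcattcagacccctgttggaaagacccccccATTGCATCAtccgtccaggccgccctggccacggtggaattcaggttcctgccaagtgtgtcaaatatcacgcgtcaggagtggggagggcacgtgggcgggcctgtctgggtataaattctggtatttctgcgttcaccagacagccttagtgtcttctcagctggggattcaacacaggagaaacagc
Chac1: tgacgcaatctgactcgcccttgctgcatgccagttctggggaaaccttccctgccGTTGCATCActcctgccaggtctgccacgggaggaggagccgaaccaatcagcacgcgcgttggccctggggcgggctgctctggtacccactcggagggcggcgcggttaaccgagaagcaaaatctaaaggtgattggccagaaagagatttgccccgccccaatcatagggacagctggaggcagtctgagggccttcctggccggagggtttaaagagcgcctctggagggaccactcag
The match began 23 bases before the start in *Asns*, on the strand of the gene, and on the opposite strand in *Nupr1*, *Fgf21* and *Chac1*. *Psat1*, which showed the largest rise of the listed targets, had no match in its windows. A match is a description of the sequence and binding was not measured.

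Total counts ran from 9362715 to 14565542 in the 12 livers. Hepatocyte markers summed to 77303–89379 CPM (counts scaled to a common library total) on Soy-10% and 72513–87604 CPM on Soy-20% + SAA, with all 12 in the table. Markers of pancreatic acinar cells (17 of 25 in the table) summed to 1139 CPM in Soy-10% liver 4, against 17.7 to 38.2 CPM in the other 11 livers, and none of the 8 islet markers is in the table. Red blood cell markers (7 of 7) ranged from 642 to 3482 CPM on Soy-10% and from 1062 to 1692 CPM on Soy-20% + SAA, Kupffer cell and leukocyte markers (14 of 16) from 371 to 652 and from 358 to 454 CPM, and adipocyte markers (3 of 8) from 34.1 to 120.3 and from 29.3 to 62.4 CPM. Markers of stellate, endothelial and bile duct cells (16 of 16) lay between 260 and 319 CPM, and skeletal muscle markers (5 of 8) did not exceed 3.78 CPM. The highest Kupffer and adipocyte sums were both in Soy-10% liver 6.

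The Soy-20% + SAA libraries were not alike. QuantSeq reads come from transcript 3′ ends, and in Soy-20% + SAA livers 3 to 6 genes with AT-rich 3′ ends were low: regressed on the GC content of the 200 bases at the 3′ end of each transcript, the log2 level had slopes of 0.058, 0.188, 0.180 and 0.206 per 10 percentage points of GC. Livers 1 and 2 of that diet had slopes of −0.026 and −0.025, inside the range of −0.066 to 0.033 spanned by the 26 libraries of the series other than livers 3 to 6. The comparison was therefore fitted again with livers 1 and 2 alone as the control. A gene is described below as called in both fits when it had the same direction and an adjusted p of 0.05 or less in each. Both fits share the 6 Soy-10% livers and livers 1 and 2, so the second is a check on the trend and not an independent replication.

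**Figure D1:**
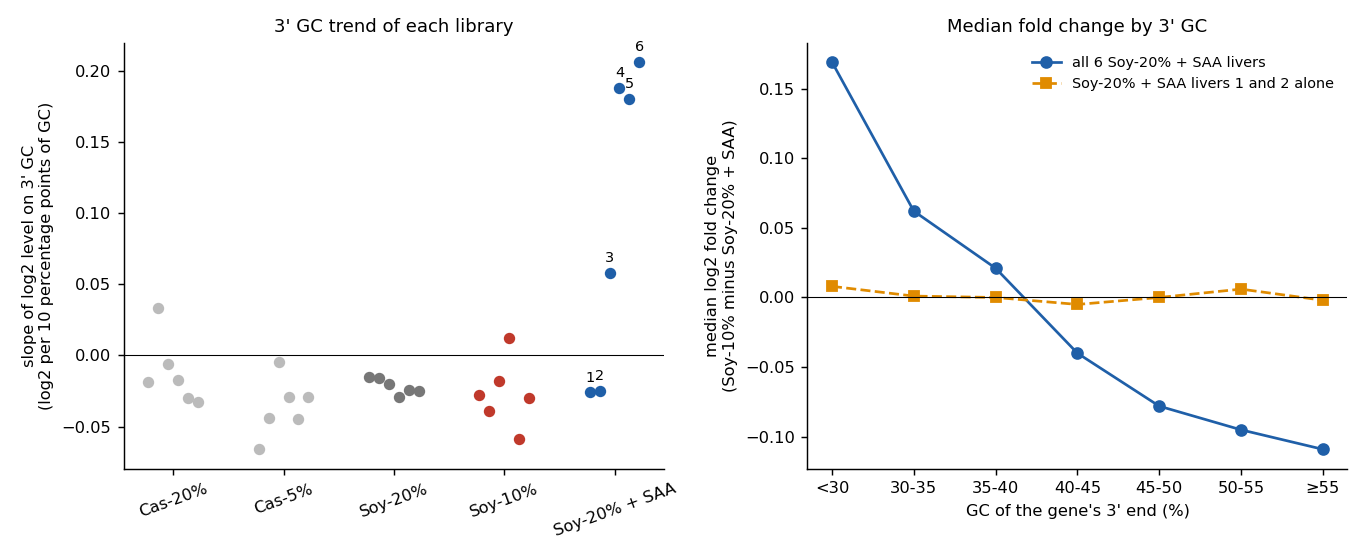
Left, the slope of expression on 3′ GC content in each of 30 libraries (points, by diet; numbers mark the Soy-20% + SAA livers), where livers 3 to 6 lie at 0.058 to 0.206 and all others at −0.066 to 0.033. Right, the median log2 fold change of genes in 7 ranges of 3′ GC, which falls from 0.17 to −0.11 with all 12 livers and stays between −0.005 and 0.008 with livers 1 and 2 alone.

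With all 12 livers, 2035 of 11983 genes were called (17.0%; edgeR's quasi-likelihood F test, Benjamini-Hochberg adjusted p of 0.05 or less), 8.51% of the genes tested being higher and 8.47% lower on Soy-10%. Called in both fits were 250 of 11979 genes (2.09%), 110 higher (0.918%) and 140 lower (1.17%). These percentages are the background beside which the counts of each gene list should be read. The calls of the 12-liver fit followed 3′ GC. Among 1559 genes with a 3′ GC content under 30%, 18.3% were called higher and 3.08% lower, whereas among 610 genes of 55% or more, 2.3% were called higher and 14.4% lower. With both directions pooled, the share of genes called in both fits was between 1.64% and 2.60% in each of 7 ranges of GC. A pooled share cannot show whether a trend by direction remained. The median 3′ GC content was 37.8% for genes higher in both fits, 41.0% for genes lower in both and 40.5% for all genes tested. Over the 2033 called genes tested in both fits, the median absolute log2 fold change was 0.52 with 12 livers and 0.29 with livers 1 and 2 alone, and 1752 had a smaller fold change in the second. These genes were picked by their call with 12 livers, and some shrinkage in another fit can follow from that choice. Of the 250 genes called in both fits, 192 had no overlap between the 6 livers of each diet. By the 12-liver fit alone, 91 of them changed at least 2-fold. The share without overlap over all genes tested is not reported here. Because the 250 genes were called on these same livers, their lack of overlap is not separate support. The number of calls leaned on single livers: it was 3119 without Soy-20% + SAA liver 1, 1219 and 1222 without livers 5 and 6 of that diet, and 1314 and 1339 without Soy-10% livers 2 and 5. Genes called in both fits numbered 157 without Soy-10% liver 2. Without Soy-10% liver 4, which held the acinar transcripts, 1733 genes were called and 281 in both fits, and without Soy-10% liver 6, with the highest Kupffer and adipocyte sums, 1489 and 266. With the GC slope of each library as a covariate, 220 of the 250 genes were called. Among those named here, *Apoa4*, *Mt1*, *Hamp2*, *Ndufb3*, *Chrna4*, *Adam9* and *Notum* were not. Among the 12 livers this slope mainly sets Soy-20% + SAA livers 3 to 6 apart (0.058 to 0.206, against −0.059 to 0.012 on Soy-10%). The covariate fit therefore leans on livers 1 and 2 much as the second fit does and is not a separate check. Any difference of livers 3 to 6, tied to GC or not, can be taken up by the covariate. The second fit has 2 controls, so a call lost there does not by itself show a smaller difference.

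**Figure D2:**
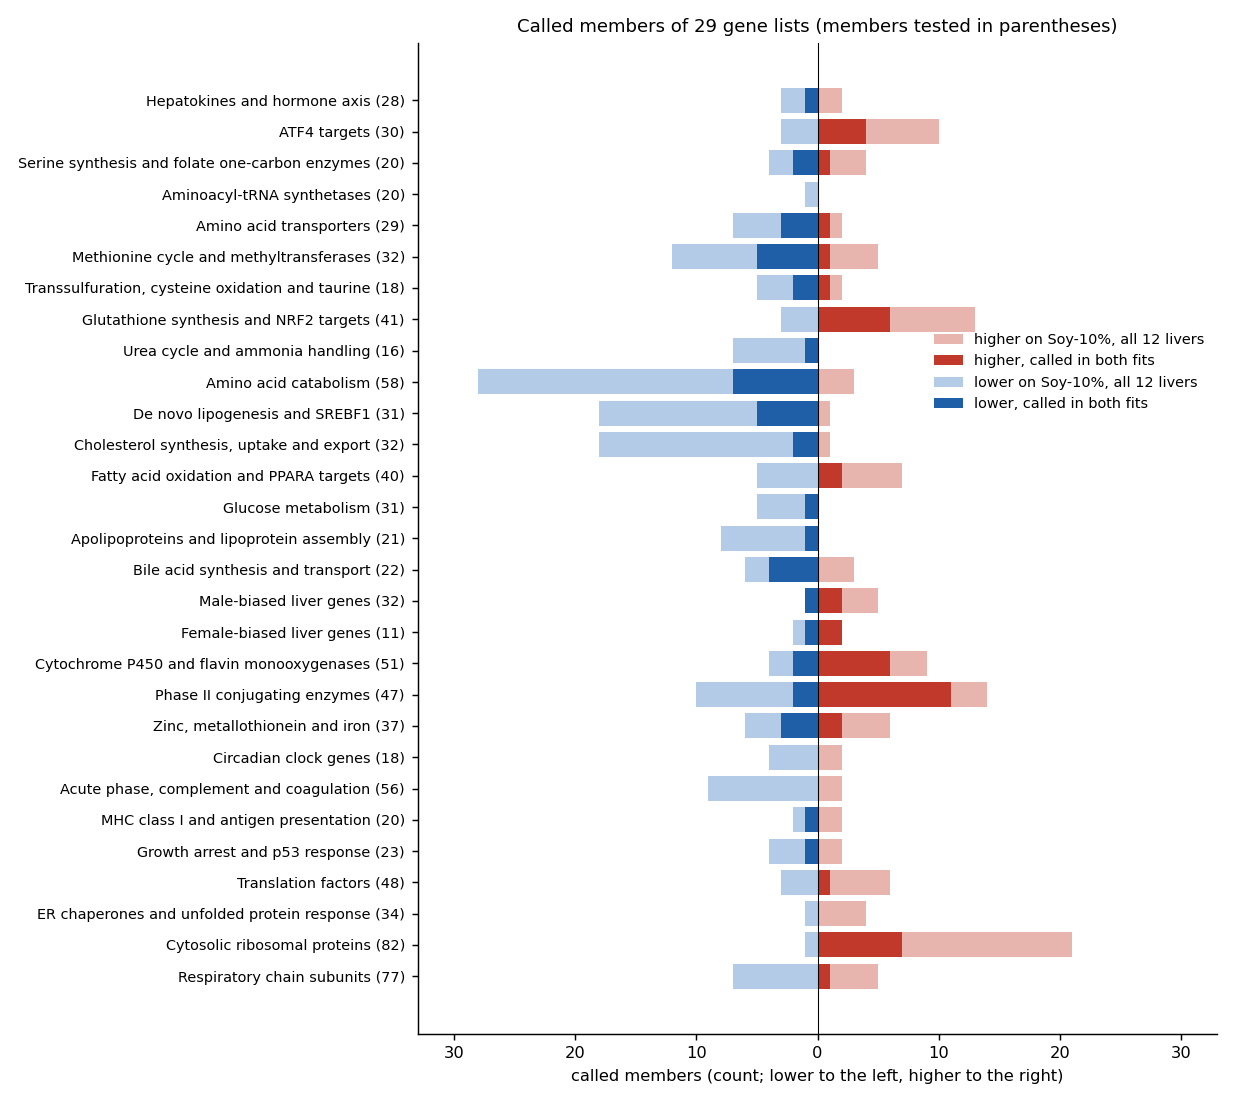
Called members (count, horizontal axis; lower on Soy-10% to the left, higher to the right) of 29 gene lists, pale for all 12 livers and dark for those called in both fits. By count, amino acid catabolism has the most members lower (28 of 58, of which 7 in both fits), and cytosolic ribosomal proteins the most higher (21 of 82, 7 in both). The lists differ in length. Shares called lower were larger for lipogenesis (18 of 31) and cholesterol genes (18 of 32). Shares called higher were larger for ATF4 targets (10 of 30), glutathione and NRF2 targets (13 of 41) and phase II enzymes (14 of 47).

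List members with too few reads were not tested. This touched female-biased liver genes most, with 19 of 33 in the table and 11 tested, and cytochrome P450 and flavin monooxygenase genes, with 60 of 74 in the table and 51 tested. For hormone genes, translation factors, respiratory chain subunits, ER chaperones, glucose metabolism, male-biased genes and acute phase genes the share of members called with 12 livers was close to the 17.0% of all genes, and those counts are given below as descriptions only.

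Part of the ATF4 response was higher on Soy-10%. Of 30 listed ATF4 targets tested, 10 were called higher and 3 lower, and 4 were called higher in both fits: *Psat1*, *Asns*, *Nupr1* and *Eif4ebp1*. The 3 called lower with 12 livers were *Atf3*, *Gpt2* and *Shmt2*, none of them in both fits. The median log2 fold change of the list was 0.38 with 12 livers and 0.27 with livers 1 and 2 alone, against −0.01 and 0.00 over all genes tested. Gene positions are those of GENCODE M21 on GRCm38. *Psat1* (chr19:15904678-15947337), which makes phosphoserine on the route to serine, had lowest, median and highest levels of 26.4, 56.5 and 93.1 normalized counts in Soy-10% livers and of 1.94, 4.12 and 8.39 in Soy-20% + SAA livers, and levels of other genes are given in the same order. A normalized count is the read count divided by the size factor of its library, without length scaling. The diets did not overlap for *Psat1*, and the log2 fold change was 3.60 ± 0.40 (SE, n = 6 per diet; edgeR adjusted p = 0.0002), a 12.2-fold difference. *Asns* (chr6:7675169-7693254), asparagine synthetase, had 91.0, 156 and 209 against 3.85, 14.8 and 50.8 normalized counts. Here too every Soy-10% liver lay above every control, although control liver 2 held 50.8 and control liver 1 7.60, and the fold was 6.97 (log2 2.80 ± 0.44, adjusted p = 0.0013). *Nupr1*, a small stress-induced chromatin protein, had 36.5, 65.7 and 81.5 against 8.60, 13.3 and 22.4 normalized counts. Its log2 fold change was 1.98 ± 0.25 with 12 livers (adjusted p = 0.00037) and larger, 2.48, with livers 1 and 2 alone.

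*Eif4ebp1*, the translation repressor 4E-BP1, differed less, with 664, 785 and 856 against 519.8, 594 and 683 normalized counts and overlapping diets (1.31-fold, adjusted p = 0.0071). *Psph*, the last enzyme of serine synthesis, was 1.89-fold higher with 12 livers (adjusted p = 0.0011) and without overlap, 70.0, 94.3 and 122 against 42.4, 49.8 and 57.3, but was not called with livers 1 and 2 alone (log2 0.78). Several genes that respond to ATF4 in acute stress were not called in either fit. *Chac1*, a glutathione-degrading enzyme, had 25.6, 80.7 and 114 against 19.3, 33.9 and 71.8 normalized counts (adjusted p = 0.068), *Trib3*, a pseudokinase, 69.0, 124 and 162 against 49.4, 93.8 and 113 (adjusted p = 0.23), and *Ddit3*, which encodes CHOP, 58.9, 75.8 and 104 against 77.3, 81.5 and 109 (adjusted p = 0.4). *Atf4*, whose protein is controlled mainly at translation, had 1369, 1581 and 1742 against 1197, 1356 and 1540 (adjusted p = 0.15). Among aminoacyl-tRNA synthetases, also known targets, 1 of 20 was called, lower and with 12 livers alone, and 5 of 20 had an unadjusted p under 0.05 with livers 1 and 2 as control.

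*Fgf21* (chr7:45613886-45615490), the hepatokine of the amino acid response, had 87.2, 144 and 344 normalized counts in Soy-10% livers and 9.58, 21.5 and 60.2 in Soy-20% + SAA livers. The diets did not overlap, the lowest Soy-10% liver being above the highest control, liver 1 at 60.2. The fold was 6.37 with 12 livers (log2 2.67 ± 0.39, adjusted p = 0.00098) and 3.77 with livers 1 and 2 alone, where it was not called. *Lepr*, the leptin receptor, went from 3.85, 12.1 and 21.0 to 15.2, 31.1 and 36.5 normalized counts (log2 1.26 ± 0.31, adjusted p = 0.015), with overlap, and was likewise not called with livers 1 and 2 (log2 0.78). *Serpina12*, the adipokine vaspin, was lower in both fits, at 1172, 1393 and 1519 against 1504, 1772 and 2005 (log2 −0.38 ± 0.08, adjusted p = 0.0092). *Igf1*, the growth hormone-dependent growth factor, had 9395, 9911 and 12764 against 10616, 12147 and 13238 and was not called (log2 −0.22 ± 0.09, adjusted p = 0.08). Of the 28 hormone genes listed, 2 were called higher and 3 lower with 12 livers.

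**Figure D3:**
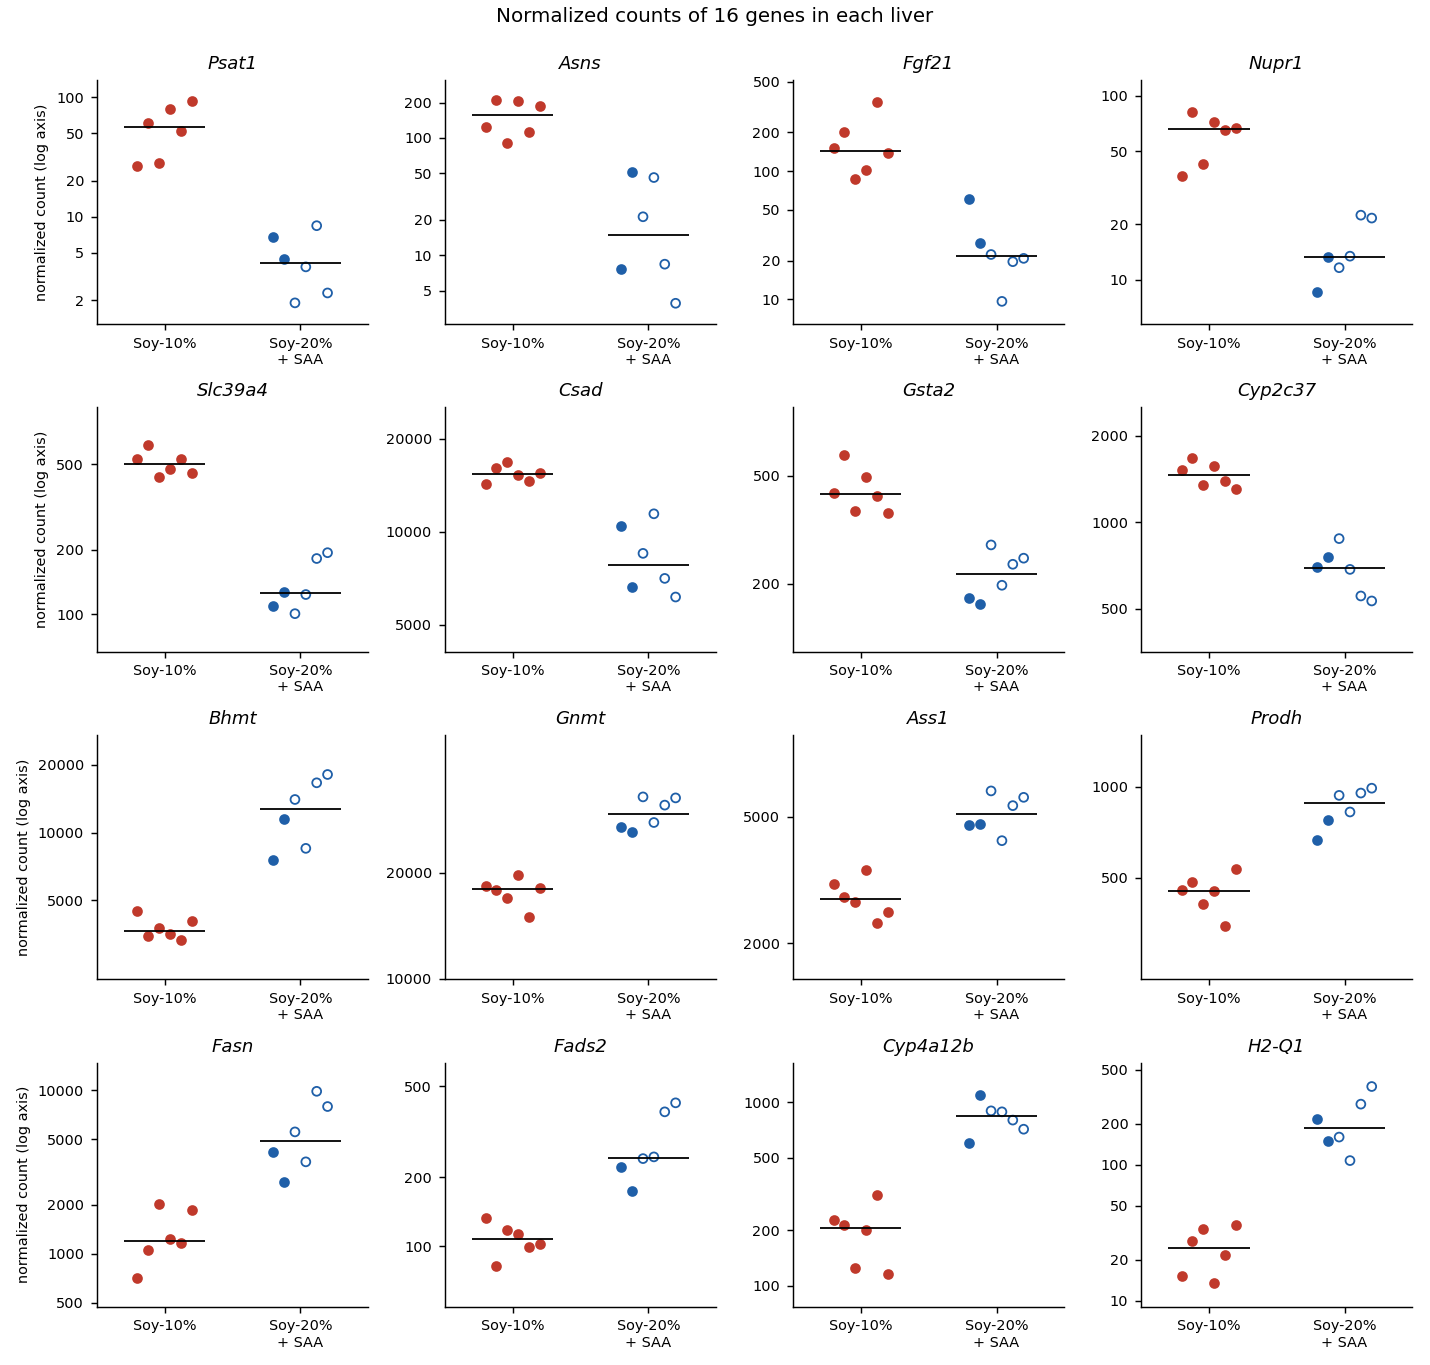
Normalized count (vertical, log axis) of 16 genes in each of the 6 Soy-10% livers (red) and 6 Soy-20% + SAA livers (blue; filled, livers 1 and 2; open, livers 3 to 6), with a line at each median. The diets do not overlap in any of the 16 genes, and the highest *Fgf21* control is liver 1, at 60.2. The 16 genes are a selection of genes called on these same livers. Other called genes, among them *Scd1*, *Lepr*, *Apoa4* and *Eif4ebp1*, overlapped and are not shown. The lack of overlap here therefore reflects the choice of genes and is not a separate result.

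Amino acid transporters were called in both directions, more of them lower. *Slc7a7*, which exports cationic amino acids across the basolateral membrane, had 50.0, 59.6 and 65.5 against 19.2, 25.7 and 32.5 normalized counts, a 2.27-fold rise without overlap (adjusted p = 0.00039). The sodium-coupled neutral amino acid carriers *Slc38a3* and *Slc38a4*, which take glutamine, alanine and other amino acids into hepatocytes, were lower in both fits. *Slc38a4* had 6135, 6628 and 7097 against 8118, 9550 and 9967 and *Slc38a3* 2758, 2931 and 3654 against 4031, 4486 and 5221, with log2 fold changes of −0.50 ± 0.07 and −0.57 ± 0.08 (adjusted p = 0.00045 and 0.00078). Neither overlapped. *Slc6a12*, a betaine and GABA carrier, also fell, from 320.1, 342 and 365 to 222, 247 and 276 (log2 −0.48 ± 0.07, adjusted p = 0.0011). In all, 2 of 29 transporters tested were called higher and 7 lower.

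Several enzymes that remethylate homocysteine from betaine or consume methyl groups were lower on Soy-10%. Of 32 genes of the methionine cycle and of methyltransferases, 12 were called lower and 5 higher, and 5 lower and 1 higher (*Amd1*) in both fits. The list median was −0.20 with 12 livers and −0.15 with livers 1 and 2. *Bhmt* (chr13:93616675-93637961), which passes a methyl group from betaine to homocysteine, had 3338, 3633 and 4485 normalized counts on Soy-10% and 7534, 12739 and 18130 on Soy-20% + SAA. Every restricted liver was below every control, with a 3.38-fold difference (log2 −1.76 ± 0.19, adjusted p = 0.0002). *Dmgdh*, which oxidizes the dimethylglycine that Bhmt forms, had 1505, 1560 and 1690 against 2193, 2914 and 3698 (log2 −0.90 ± 0.10, adjusted p = 0.00023). *Gnmt*, which disposes of excess S-adenosylmethionine by methylating glycine, had 14940, 17934 and 19642 against 26120, 29430 and 32821, again without overlap (log2 −0.75 ± 0.08, adjusted p = 0.0002). *Gamt*, which uses S-adenosylmethionine to make creatine, fell 1.49-fold (log2 −0.57 ± 0.09, adjusted p = 0.0014). *Bhmt2* was the fifth gene lower in both fits.

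*Nnmt*, which methylates nicotinamide, had 74.1, 110.1 and 291 against 334, 448 and 645 normalized counts without overlap (log2 −1.70 ± 0.30, adjusted p = 0.0026), but was not called with livers 1 and 2 alone (log2 −1.31). The same held for *Mat1a*, the hepatic S-adenosylmethionine synthetase, at 19528, 21977 and 23677 against 22389, 31477 and 33051 (log2 −0.46 ± 0.09, adjusted p = 0.0061; −0.23 with livers 1 and 2). *Mat2a*, the form found in other tissues, was 1.19-fold higher with 12 livers (log2 0.25 ± 0.07, adjusted p = 0.033), had a log2 fold change of 0.33 with livers 1 and 2 alone, where it was not called, and lost its call when any 1 of 7 single livers was left out (Soy-20% + SAA 3, 5 or 6, or Soy-10% 2, 3, 5 or 6), its log2 fold change staying between 0.22 and 0.30.

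Of genes that carry sulfur onward from homocysteine, the 2 steps to cysteine were not called. *Cbs*, cystathionine beta-synthase, had 2538, 3326 and 3478 against 3084, 3518 and 3894 normalized counts, and *Cth*, cystathionine gamma-lyase, 2072, 2284 and 2754 against 1255, 1831 and 2597. *Cth* has a 3′ end of 23% GC, and its log2 fold change was 0.33 ± 0.18 with 12 livers and −0.01 with livers 1 and 2. *Csad*, which makes hypotaurine from cysteine sulfinate, rose. It had 14258, 15368 and 16819 on Soy-10% and 6154, 7791 and 11427 on Soy-20% + SAA, without overlap and with 9645, 11250 and 12067 on Soy-20%, and the log2 fold change was 0.88 ± 0.14 (adjusted p = 0.0013) with 12 livers and 0.85 with livers 1 and 2. *Papss2*, which activates sulfate for sulfation, was lower at 725, 799 and 945 against 1092, 1436 and 1624 (log2 −0.79 ± 0.10, adjusted p = 0.00035), and *Mpst*, a mercaptopyruvate sulfurtransferase, at 327, 365 and 396 against 447, 582 and 683 (log2 −0.65 ± 0.10, adjusted p = 0.0011). Together 2 of 18 genes of the group were called higher and 5 lower.

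Glutathione and NRF2 target genes were called more often higher than lower. Of 41 tested, 13 were called higher and 3 lower, and 6 were called higher in both fits. The median was 0.02 with 12 livers and 0.17 with livers 1 and 2. *Gsta2*, a glutathione S-transferase, had 364, 426 and 594 against 169, 217 and 278 normalized counts (log2 1.03 ± 0.14, adjusted p = 0.00068). The rise was without overlap and was larger with livers 1 and 2, at 1.36. *Ephx1*, the microsomal epoxide hydrolase, had 3629, 4060 and 4305 against 1790, 2581 and 2919 (log2 0.69 ± 0.10, adjusted p = 0.00099), *Ugdh*, which makes UDP-glucuronic acid, 1537, 1754 and 2010 against 746, 964 and 1384 (log2 0.80 ± 0.13, adjusted p = 0.0014), and *Gstm1* 22096, 23449 and 24283 against 12778, 16252 and 18850 (log2 0.51 ± 0.09, adjusted p = 0.0021). None of these overlapped. The subunits of glutamate-cysteine ligase, which limits glutathione synthesis, were higher with 12 livers: *Gclc* 1.53-fold and *Gclm* 1.29-fold (adjusted p = 0.0061 and 0.017). Neither was called with livers 1 and 2 alone (log2 0.35 and 0.27). *Nqo1*, a classical NRF2 target, had 51.3, 54.5 and 66.5 against 24.9, 40.1 and 63.1 and was not called (adjusted p = 0.23).

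Amino acid breakdown was the list with the most lower genes by count, although the shares of lipogenic and cholesterol genes called lower were larger. Of 58 genes tested, 28 were called lower and 3 higher with 12 livers, and 7 were called lower in both fits. With livers 1 and 2 alone 50 of 58 had a log2 fold change below 0, and the median was −0.15 (−0.21 with 12 livers). *Prodh*, which starts proline oxidation, had 346, 453 and 536 against 666, 879.7 and 988 normalized counts. The diets did not overlap (log2 −0.94 ± 0.11, adjusted p = 0.00033). *Agxt2*, an alanine-glyoxylate aminotransferase, had 963, 981 and 1139 against 1357, 1733 and 1857 (log2 −0.70 ± 0.09, adjusted p = 0.00033), and *Gpt*, alanine aminotransferase, 769, 959 and 1128 against 1220, 1492 and 1941 (log2 −0.69 ± 0.11, adjusted p = 0.0013). *Ftcd*, which hands the formimino group of histidine to tetrahydrofolate, had 2215, 2452 and 2746 against 3319, 4513 and 5338 (log2 −0.85 ± 0.11, adjusted p = 0.00035). *Aldh1l1*, which oxidizes formyl-tetrahydrofolate, was lower too, at 1669, 2018 and 2346 against 2549, 3138 and 3395 (log2 −0.61 ± 0.09, adjusted p = 0.001). In none of *Agxt2*, *Gpt*, *Ftcd* and *Aldh1l1* did the diets overlap.

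Some degrading enzymes moved otherwise. *Tdo2*, which opens the tryptophan ring, was 1.3-fold higher with 12 livers (15124, 19362 and 20497 against 12432, 14546 and 15617, adjusted p = 0.01) and was not called with livers 1 and 2 (log2 0.42). *Sds*, serine dehydratase, had 722, 926 and 1058 on Soy-10%, 1111 and 694 in Soy-20% + SAA livers 1 and 2, and 85.3 to 481 in livers 3 to 6. It was not called in either fit, with log2 fold changes of 1.02 ± 0.45 and 0.03. Its 3′ GC content is 50.5%, and with the GC slope of each library as a covariate its log2 fold change was 0.08 (adjusted p = 0.91).

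Urea cycle and ammonia genes were called lower in 7 of 16 cases, and *Ass1*, argininosuccinate synthase, in both fits. *Ass1* had 2317, 2756 and 3407 against 4211, 5095 and 6037 normalized counts without overlap (log2 −0.88 ± 0.11, adjusted p = 0.00033). *Asl*, the next enzyme, had 1250, 1338 and 1584 against 1699, 1847 and 2161 (log2 −0.46 ± 0.08, adjusted p = 0.0032). It was not called with livers 1 and 2 (log2 −0.39) but was with the GC covariate (−0.43, adjusted p = 0.034). *Cps1*, which starts the cycle, had different fold changes in the 2 fits, and whether the 3′ GC trend accounts for this was not tested. It has a 3′ GC content of 32.5%, with 4102, 4831 and 5572 on Soy-10%, 6659 and 7888 in control livers 1 and 2, and 3094 to 7043 in livers 3 to 6. The log2 fold change was −0.16 ± 0.21 with 12 livers (adjusted p = 0.64) and −0.61 with livers 1 and 2 alone, where it was called lower.

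**Figure D4:**
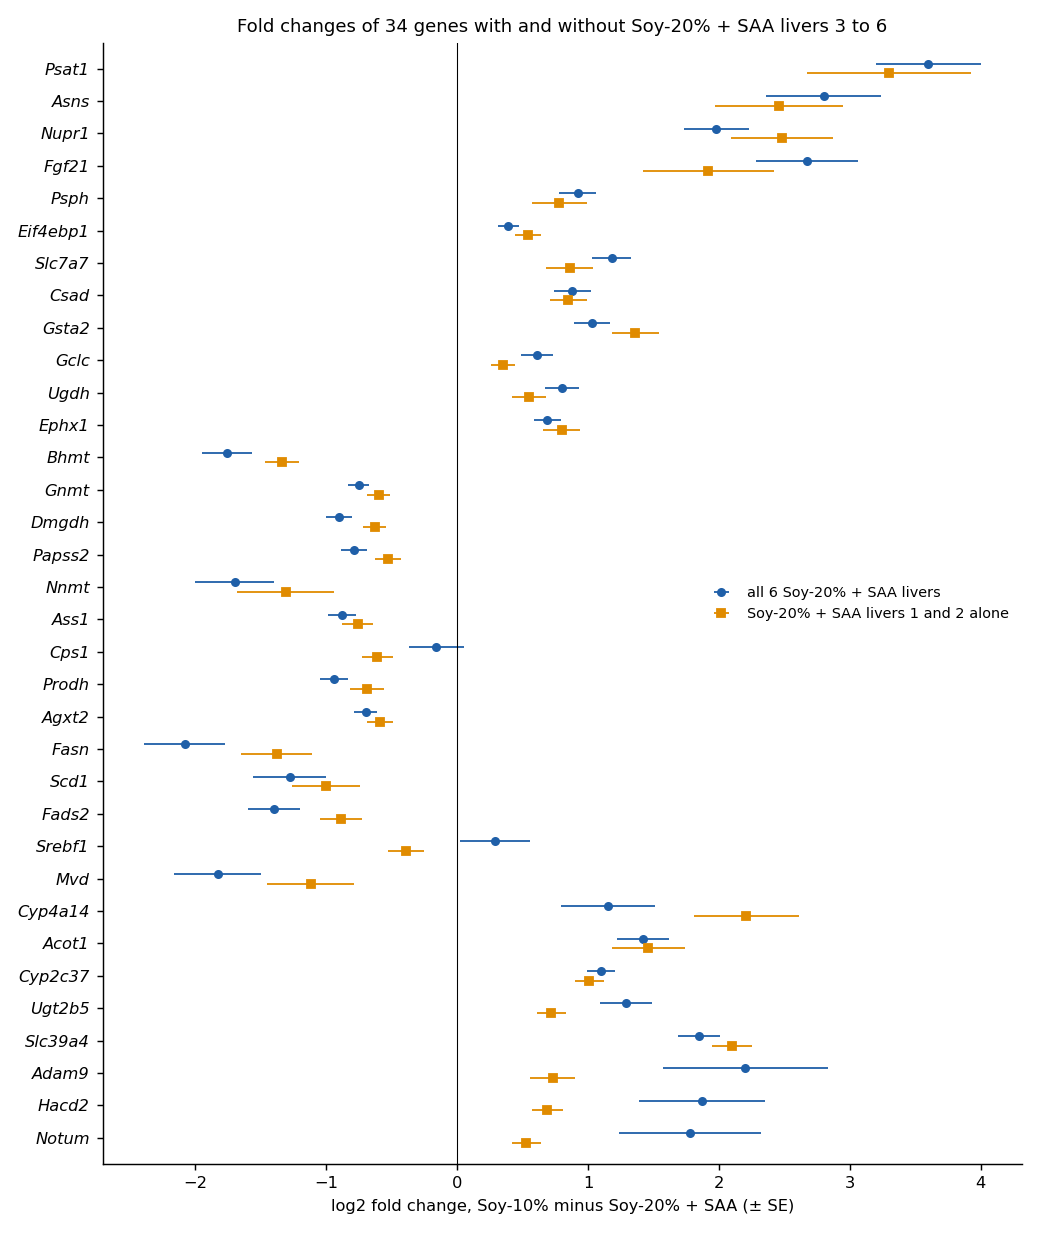
Log2 fold change ± SE (horizontal; Soy-10% minus Soy-20% + SAA) of 34 genes with all 12 livers (blue circles) and with Soy-20% + SAA livers 1 and 2 alone as control (orange squares). *Adam9*, *Hacd2* and *Notum*, at the bottom, shrink from 2.20, 1.87 and 1.78 to 0.73, 0.69 and 0.53, while *Cps1* and *Srebf1* move downward.

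Many lipogenic genes were lower on Soy-10%. Of 31 listed, 18 were called lower and 1 higher with 12 livers, and 5 lower in both fits, among them *Fasn*, *Elovl6*, *Fads2* and *Fads1*. The list median was −0.60 with 12 livers and −0.47 with livers 1 and 2, where 24 of 31 were below 0. *Fasn* (chr11:120805846-120824547), fatty acid synthase, had 711, 1195 and 2012 against 2738, 4868 and 9854 normalized counts without overlap (log2 −2.08 ± 0.31, adjusted p = 0.0011; −1.38 with livers 1 and 2). The fatty acid desaturases *Fads2* and *Fads1* fell 2.64-fold and 1.85-fold with 12 livers (adjusted p = 0.00088 and 0.0012) and had log2 fold changes of −0.89 and −0.58 with livers 1 and 2. *Scd1*, stearoyl-CoA desaturase, had 23558, 30233 and 48668 against 44402, 70373 and 144089 (log2 −1.28 ± 0.28, adjusted p = 0.0092). Its diets overlapped, it spread more than 3-fold among the controls, and it was not called with livers 1 and 2 alone (log2 −1.0). *Acaca*, acetyl-CoA carboxylase, fell 1.80-fold with 12 livers (adjusted p = 0.012) and was likewise not called in the second fit (log2 −0.56). *Srebf1*, the regulator of these genes, had 351, 458 and 547 on Soy-10%, 634 and 551 in control livers 1 and 2 and 144 to 344 in livers 3 to 6. It was not called, and its log2 fold change was 0.29 ± 0.27 with 12 livers and −0.39 with livers 1 and 2 alone.

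Cholesterol genes were also called lower with 12 livers, but few were called in the second fit. Of 32 tested, 18 were called lower and 1 higher, and 2 lower in both fits (*Hmgcs1* and *Sc5d*). With livers 1 and 2 alone 29 of 32 were below 0, and the median was −0.40 against −0.46. *Mvd*, a decarboxylase of the mevalonate pathway, had 64.0, 106 and 236 against 263, 401 and 765 normalized counts without overlap (log2 −1.83 ± 0.33, adjusted p = 0.0032) and was not called with livers 1 and 2 (log2 −1.12). *Dhcr7* and *Fdft1*, enzymes of later steps, fell by 2.02- and 1.70-fold with 12 livers (adjusted p = 0.0032 and 0.0024). Neither was called with livers 1 and 2, where the log2 fold changes were −0.84 and −0.55.

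Apolipoprotein genes were called lower in 8 of 21 cases, and *Apoa4*, a chylomicron apolipoprotein also made in steatotic liver, in both fits. The list median was −0.23 with 12 livers and −0.07 with livers 1 and 2, and no member was called with the GC covariate. The median 3′ GC content of these genes was 49.0%, against 40.5% over all genes tested, on the side where the 12-liver fit called more genes lower. *Apoa4* had 1122, 1635 and 2237 against 2191, 5012 and 12729 normalized counts, and liver 2 of the controls, at 2191, lay within the Soy-10% range (log2 −2.04 ± 0.40, adjusted p = 0.0056). With the GC covariate *Apoa4* was not called (log2 −1.28, adjusted p = 0.13). Fatty acid oxidation and PPARA target genes moved in both directions (7 of 40 higher, 5 lower). *Acot1*, a PPARA-induced acyl-CoA thioesterase, rose 2.68-fold without overlap (447, 747 and 1066 against 199.9, 295 and 346, adjusted p = 0.00067). *Cyp4a14*, a PPARA-induced fatty acid hydroxylase, had 6788, 12415 and 17670 against 1311, 5895 and 8723 with overlap. Its log2 fold change was 1.15 ± 0.36 (adjusted p = 0.042) with 12 livers and 2.21 with livers 1 and 2, and it was called in both. The 12-liver call was lost when any 1 of 8 single livers was left out (Soy-20% + SAA 1, 3 or 5, or Soy-10% 1, 2, 3, 5 or 6), with log2 values of 0.95 to 1.32. *Cpt1a*, the gate of mitochondrial fatty acid entry, was lower at 1607, 1848 and 2150 against 2153, 2555 and 3231 (log2 −0.50 ± 0.10, adjusted p = 0.0061) and not called with livers 1 and 2 (log2 −0.36).

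**Figure D5:**
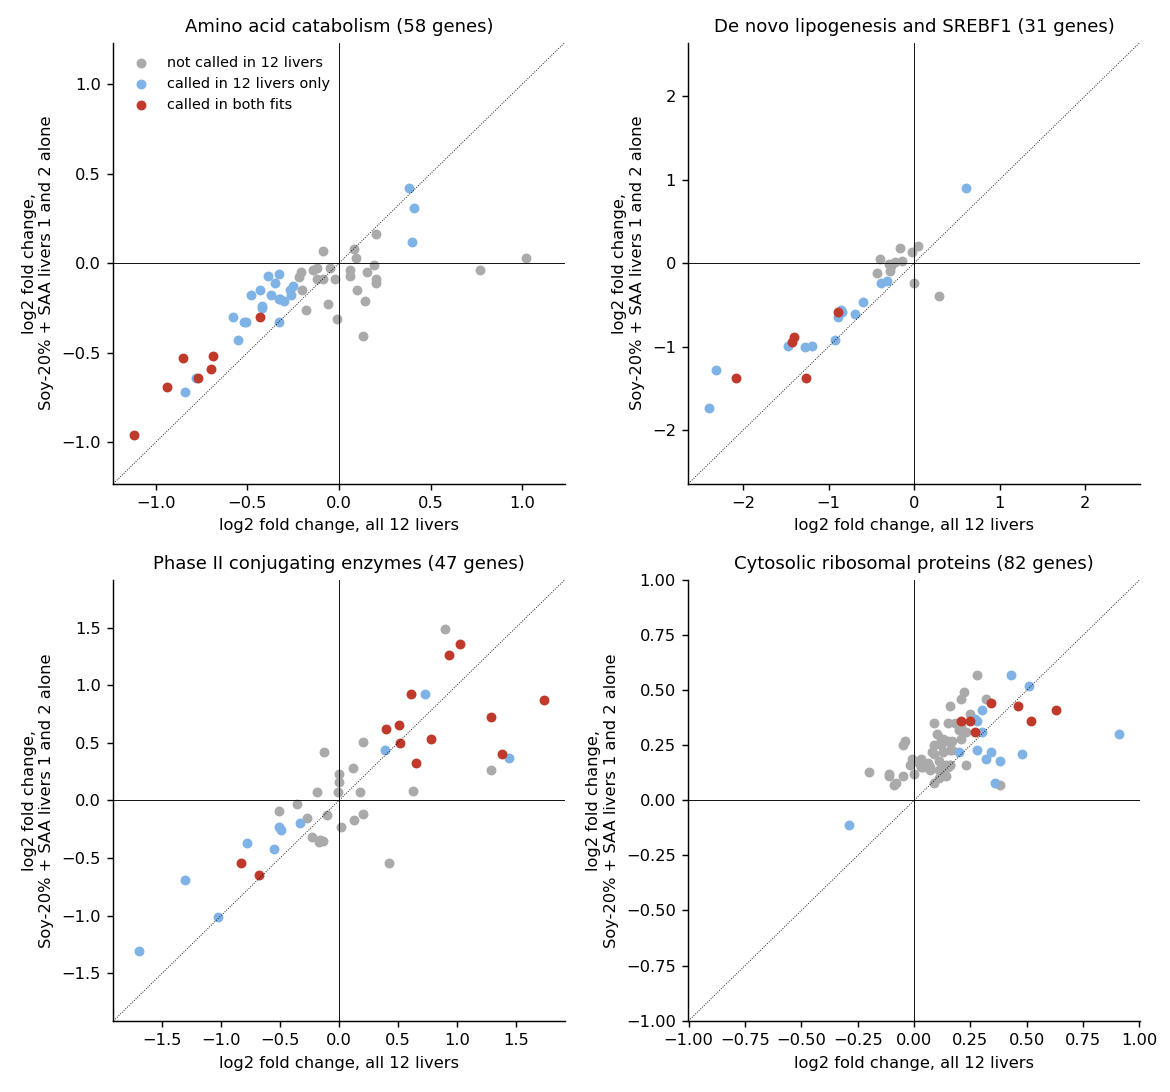
Log2 fold change of each tested member of 4 gene lists with all 12 livers (horizontal) and with Soy-20% + SAA livers 1 and 2 alone (vertical); red points were called in both fits and the dotted line marks equal values. Members of amino acid catabolism and lipogenesis lie mostly below 0 on both axes, and 81 of 82 ribosomal protein genes lie above 0 on the vertical axis.

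Bile acid genes were called in both directions with 12 livers, 3 of 22 higher and 6 lower with a median of 0.01, and 4 were called in both fits, each lower. *Cyp2c70*, which makes mouse muricholic acids, had 1241, 1466 and 1810 against 2354, 2720 and 3357 normalized counts (log2 −0.90 ± 0.11, adjusted p = 0.00035). *Slc10a2*, the apical bile acid transporter, had 105, 118 and 158 against 217, 238 and 332 (log2 −1.0 ± 0.13, adjusted p = 0.00035), and *Akr1d1*, a steroid 5-beta-reductase, 586, 624 and 681 against 777, 941 and 1095 (log2 −0.58 ± 0.08, adjusted p = 0.00087). None of the 3 overlapped, and the fourth was *Slco1a4*.

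Drug-metabolizing enzymes included the list with the most genes called in both fits. Of 47 phase II enzymes tested, 14 were called higher and 10 lower, and 11 higher and 2 lower in both fits. Of 51 cytochrome P450 and flavin monooxygenase genes, 9 were called higher and 4 lower, and 6 higher and 2 lower in both fits. *Cyp2c37*, which acts on arachidonic acid, had 1305, 1455 and 1675 against 532, 690.4 and 877 normalized counts without overlap (log2 1.1 ± 0.11, adjusted p = 0.00013). *Cyp39a1*, an oxysterol 7-alpha-hydroxylase, had 99.7, 114 and 178 against 30.7, 39.9 and 63.2 (log2 1.48 ± 0.20, adjusted p = 0.0006). *Cyp2c40*, a gene listed here as female-biased, rose from 4.42, 7.21 and 12.3 to 18.2, 27.6 and 67.4 (log2 2.02 ± 0.34, adjusted p = 0.0019). Among conjugating enzymes *Ugt2b35*, a glucuronosyltransferase, had 1704, 1814 and 2004 against 1058, 1298 and 1441 (log2 0.52 ± 0.08, adjusted p = 0.0011). *Ugt2b5*, with a 3′ GC content of 26%, had a log2 fold change of 1.29 ± 0.20 with 12 livers (adjusted p = 0.0013) and 0.72 with livers 1 and 2. *Sult1a1*, a phenol sulfotransferase, was lower at 1202, 1415 and 1705 against 1836, 2404 and 3322 (log2 −0.83 ± 0.13, adjusted p = 0.0013).

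Sex-biased liver genes moved both ways. *Cyp4a12b* (chr4:115411624-115439034), a male-biased fatty acid hydroxylase, had 115, 207 and 312 against 602, 845 and 1101 normalized counts, a 4.21-fold fall without overlap (adjusted p = 0.00013) that was of the same size with livers 1 and 2 (log2 −2.11). Its neighbour and near copy *Cyp4a12a* had 2891, 3936 and 4876 against 3279, 4447 and 4864 and was not called (log2 −0.13 ± 0.14). *Mup9*, a major urinary protein gene, had 851, 1542 and 2714 against 235, 448 and 752 (log2 1.81 ± 0.30, adjusted p = 0.0017) but 814, 1435 and 4278 on Soy-20%. *Gstp1*, male-biased, had 579.9, 842 and 1136 against 329, 373 and 779 with overlap (log2 0.93 ± 0.22, adjusted p = 0.012). *Nipal1*, listed as female-biased, had 8.34, 16.1 and 36.1 against 33.5, 81.2 and 188 (log2 −2.16 ± 0.46, adjusted p = 0.0077). Of 32 male-biased genes 5 were called higher and 1 lower, and of 11 female-biased genes 2 were called in each direction. *Cyp4a*, *Cyp2c*, *Ugt2b*, *Gst*, *Mup*, *Acot*, *Hamp* and *H2-Q* genes have near-identical copies, and because the counting rule for shared reads is not given in the sources used here, the division of reads among them is uncertain.

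*Slc39a4* (chr15:76612383-76617384), the zinc importer ZIP4, was among the clearest differences. It had 437, 502 and 612 normalized counts on Soy-10% and 101, 125 and 194 on Soy-20% + SAA, with 131, 195 and 305 on Soy-20%. Every restricted liver was above every control by a wide margin, the log2 fold change was 1.85 ± 0.16 (adjusted p = 6.1e-05), and with livers 1 and 2 it was 2.10. Metallothioneins, which bind zinc, were lower or not called. *Mt1* had 322, 436 and 530.4 against 345, 724 and 1126 (log2 −0.80 ± 0.23, adjusted p = 0.029) and 158, 333 and 562 on Soy-20%. The diets overlapped, and although *Mt1* was called in both fits, the 12-liver call was lost when any 1 of 6 single livers was left out (Soy-20% + SAA 5 or 6, or Soy-10% 3, 4, 5 or 6), with log2 values of −0.95 to −0.65. *Mt2* had 92.0, 150.1 and 222 against 138, 236 and 340.2 and was not called (adjusted p = 0.061).

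Iron genes called in both fits were *Hjv*, *Slc40a1* and *Hamp2*. *Hjv*, hemojuvelin, the BMP co-receptor that raises hepcidin, had 705, 722 and 741 against 1032, 1174 and 1361 normalized counts without overlap (log2 −0.73 ± 0.07, adjusted p = 0.00012). *Slc40a1*, the iron exporter ferroportin, had 1782, 1933 and 2074 against 815, 984 and 1450 (log2 0.84 ± 0.13, adjusted p = 0.0015; 0.45 with livers 1 and 2). *Hamp2*, a copy of the hepcidin gene, had 186, 282 and 354 against 214, 738 and 1858 with overlap (log2 −1.66 ± 0.39, adjusted p = 0.013), and of the 3 it alone was not called with the GC covariate (log2 −1.21, adjusted p = 0.17). *Hamp*, hepcidin, went the other way with 10431, 17975 and 27184 against 9473, 11784 and 14148 (log2 0.63 ± 0.19, adjusted p = 0.035), was as large but not called with livers 1 and 2 (log2 0.63), and lost its 12-liver call when any 1 of 6 single livers was left out (Soy-20% + SAA 5 or 6, or Soy-10% 1, 3, 4 or 6; log2 0.48 to 0.75). Of 37 zinc and iron genes, 6 were called in each direction.

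Most cytosolic ribosomal protein genes had small positive fold changes. Of 82 tested, 21 were called higher and 1 lower, and 7 higher in both fits. With 12 livers 71 of 82 had a log2 fold change above 0 (median 0.15), and with livers 1 and 2 alone 81 of 82 did (median 0.22). *Rpl19* had 545, 602 and 607 against 356, 410.2 and 459 normalized counts (log2 0.52 ± 0.08, adjusted p = 0.001) and *Rps18* 2260, 2548 and 2765 against 1332, 1611 and 1952 (log2 0.63 ± 0.09, adjusted p = 0.0011), neither overlapping. *Rpl35a* and *Rps23* rose 1.37-fold and 1.42-fold (adjusted p = 0.0014 and 0.0065), and *Rps23* was not called with livers 1 and 2 although its log2 fold change was 0.51 in the first fit and 0.52 in the second. Ribosomal protein genes have many processed copies in the genome, so reads may be divided among them. Translation factors showed 6 higher and 3 lower of 48. Respiratory chain subunits showed 5 higher and 7 lower of 77, with a median of −0.10 with 12 livers and 0.05 with livers 1 and 2. *Ndufb3*, a complex I subunit, was the only one called in both fits, at 2588, 2735 and 3137 against 1231, 1938 and 2188 (log2 0.64 ± 0.12, adjusted p = 0.0043). With the GC covariate it was not called (log2 0.40, adjusted p = 0.09), and its log2 fold change against Soy-20% was 0.06.

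Other groups carried few calls into both fits. *H2-Q1* (chr17:35320405-35325099), a class I histocompatibility gene, had 13.6, 24.6 and 36.1 against 107, 187 and 376 normalized counts without overlap (log2 −3.11 ± 0.32, adjusted p = 0.00013) and was the only one of 20 listed genes of class I and antigen presentation called in both fits. Of 23 growth arrest genes 2 were called higher and 4 lower. Among them *Btg2*, an antiproliferative p53 target, had 28.2, 33.5 and 38.7 against 46.0, 75.1 and 88.1 (log2 −1.08 ± 0.17, adjusted p = 0.0013). Acute phase, complement and coagulation genes showed 2 higher and 9 lower of 56 with 12 livers and none in both fits, 14 having an unadjusted p under 0.05 with livers 1 and 2 (edgeR). *C4a*, a complement gene, had 47.6, 63.1 and 96.9 against 102, 119 and 153 (log2 −0.90 ± 0.16, adjusted p = 0.0032; −0.63 with livers 1 and 2). Clock genes showed 2 higher and 4 lower of 18, also none in both fits, with 3 at an unadjusted p under 0.05 in the second. *Tef*, a clock output factor, fell with 12 livers (log2 −0.83 ± 0.22, adjusted p = 0.021) and had a log2 fold change of −0.15 with livers 1 and 2, where it was not called. Chaperones of the endoplasmic reticulum showed 4 higher and 1 lower of 34 and none in both fits, 6 having an unadjusted p under 0.05. DESeq2 with 12 livers called 15, 6 and 6 genes of these last 3 lists. Glucose metabolism genes showed 5 lower of 31.

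Among the largest falls of genes called in both fits were genes best known from other tissues. *Dct*, dopachrome tautomerase of melanin synthesis, had 6.46, 12.5 and 26.6 against 69.0, 114 and 239.6 normalized counts (log2 −3.23 ± 0.37, adjusted p = 0.00022). *Chrna4*, a nicotinic acetylcholine receptor subunit, had 4.06, 8.66 and 29.4 against 34.5, 90.8 and 347 (log2 −3.12 ± 0.60, adjusted p = 0.0046). Neither overlapped, though single livers differed by a large factor within a diet. *Cib3*, a calcium-binding protein, had 0.95, 5.51 and 19.3 against 31.6, 42.3 and 106 (log2 −2.63 ± 0.45, adjusted p = 0.0022), *Lrtm1* 9.12, 28.1 and 76.0 against 130, 155 and 282 (log2 −2.56 ± 0.36, adjusted p = 0.00075) and *Sulf2*, an extracellular heparan sulfate sulfatase, 16.2, 28.4 and 38.0 against 72.8, 108 and 179.7 (log2 −2.17 ± 0.27, adjusted p = 0.00035). On Soy-20% the medians of these 5 genes were 53.7, 45.7, 18.5, 91.5 and 82.7, between those of the compared diets.

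Of the largest rises, *Pcp4l1*, a PCP4-like protein, had 115, 163 and 235 against 20.5, 33.7 and 57.5 normalized counts and gave nearly the same log2 fold change in both fits, 2.26 ± 0.22 (adjusted p = 0.00012) and 2.19. In contrast *Adam9*, *Hacd2* and *Notum* have 3′ GC contents of 16%, 28% and 30%, and most of their difference came from livers 3 to 6. *Adam9*, a membrane metalloprotease, had 202, 279 and 296 on Soy-10%, 196 and 126 in control livers 1 and 2, and 6.53 to 16.5 in livers 3 to 6. *Hacd2*, an enzyme of fatty acid elongation, had 1225, 1369 and 1532, then 985 and 719, then 89.1 to 214. *Notum*, a secreted Wnt-inactivating enzyme, had 357, 387 and 439.6, then 241 and 296, then 16.2 to 86.2. The restricted livers were above livers 1 and 2 in all 3 genes, with log2 fold changes of 0.73, 0.69 and 0.53 in place of 2.20, 1.87 and 1.78. The 12-liver calls were unstable for *Adam9*, lost when any 1 of 6 single livers was left out (Soy-20% + SAA 3, 5 or 6, or Soy-10% 1, 2 or 3; log2 1.95 to 3.14), and for *Notum*, lost when any 1 liver was left out other than Soy-20% + SAA 1 or 2 (log2 1.54 to 2.33). *Atp9a*, a phospholipid flippase, was the only called gene with a mean of 50 or more whose sign differed between fits, at −0.46 ± 0.14 (adjusted p = 0.035) with 12 livers and 0.01 with livers 1 and 2.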

How the data were processed

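Liver mRNA of 30 mice was sequenced from transcript 3′ ends (Lexogen QuantSeq 3′ FWD) by the authors. Reads were mapped and counted by the authors with the QuantSeq pipeline 2.3.6. The labels name GRCm38/mm10, R 4.0.3 and DESeq2 1.30, and the aligner is not given in the sources used here. The authors deposited raw read counts for 14173 genes, each with at least 90 counts over the 30 libraries, so low genes were already left out. They also deposited a normalized signal, those counts divided by 1 DESeq2 size factor per library, which is called the normalized count here and keeps each library's 3′ GC trend. Coordinates and 3′ ends were taken from GENCODE M21.

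Genes were tested on the raw counts with edgeR 4.0.16 in R 4.3.3 (filterByExpr, TMM, quasi-likelihood F test), with DESeq2 1.42.0 as an alternative, and p-values were adjusted over all genes tested by the Benjamini-Hochberg method. The script was tested on simulated data. Alternatives were other controls, a GC slope covariate, other size factors, no filter, a replicate block and single livers left out. Total counts of 9362715 to 14565542 leave genes of a few counts imprecise.

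The comparison, gene lists and tests were chosen with earlier results of these data known. Named genes were those the study measured by PCR, preset key genes of each list, up to 4 called genes per list with the smallest adjusted p and at least 10 normalized counts in a diet, the 10 largest rises and 10 largest falls called in both fits without overlap at 20 or more, and called genes at 50 or more whose sign turned with livers 1 and 2 alone. Not every gene that this rule names is described, and some results are not reported here. *Amd1*, *Bhmt2*, *Elovl6*, *Gpt2*, *Hmgcs1*, *Sc5d*, *Shmt2* and *Slco1a4* were named after their values were seen. *Atf3*, *Herpud1*, *Jdp2*, *Pck2*, *Pycr1*, *Slc7a11* and *Vldlr* were also named outside the rule, because their promoters hold the motif.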

Additional observations from a re-analysis of the deposited data

Results flagged for a closer look

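In 220 sets of 6 livers, 13 held 1 liver whose gap to its nearest neighbour exceeded Dixon's 95% critical share of the range, where chance gives about 1 in 20. Among summed marker levels, these were pancreatic acinar markers in Soy-10% liver 4 (1138.78 CPM), red blood cell markers in Soy-10% liver 2 (3481.58 CPM), Kupffer cell and leukocyte markers and adipocyte markers in Soy-10% liver 6 (651.91 and 120.26 CPM), and markers of stellate, endothelial and bile duct cells in Soy-10% liver 4 (291.95 CPM). Among genes on Soy-20% + SAA, *Fgf21* stood apart in liver 1 at 60.2 normalized counts, *Cib3* in liver 2 at 106.0, *Chrna4* in liver 5 at 346.8, and both *Mat2a* and *Gstp1* in liver 4 at 1195.1 and 779.1. On Soy-10%, *Igf1* stood apart in liver 1 at 12764.2 normalized counts, *Adam9* in liver 5 at 201.7 and *Lrtm1* in liver 6 at 76.0. The liver 1 value of *Fgf21* is 1 of the 2 controls left when livers 3 to 6 are set aside, and liver 2 likewise for *Cib3*.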

How the results depend on the processing

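The count of 2035 called genes (1020 higher, 1015 lower) depended most on which control livers entered. It was 317 (138 and 179) with Soy-20% + SAA livers 1 and 2 as control, 367 (178 and 189) when Soy-10% liver 4 was also left out, 377 (179 and 198) with each library's GC slope as a covariate, and 103 (38 and 65) with Soy-20% as control. Fewer livers enter the first 2 fits, and the causes of the other drops were not tested. Leaving out single livers gave 1219 to 3119 calls, 569 to 1701 higher and 639 to 1418 lower. Leaving out single Soy-10% livers gave 157 to 281 genes called in both fits. No control liver was left out for that last count. RLE size factors (2030), no filter (1989) and DESeq2 (2360) left the count within 1.5 times. Of 86 called genes described with values in the text, all kept their call under these last 3, 65 with livers 1 and 2 alone, 65 under the GC covariate and 34 against Soy-20%. List counts stayed within 1.5 times under these 3 for 29 of 29 lists, for 3 with livers 1 and 2, for 4 with the GC covariate, for 0 with Soy-20% as control, and in 259 fits of a list without a single liver but not in 89.

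Signs turned for few genes. With livers 1 and 2 as control the log2 fold change was −0.01 for *Cth*, −0.39 for *Srebf1* (−0.42 also without Soy-10% liver 4) and 0.01 for *Atp9a*. With the GC covariate it was −0.15 for *Cth* and −0.23 for *Srebf1*. With Soy-20% as control it was −0.10 for *Cth*, −0.41 for *Sds*, −0.61 for *Srebf1*, −0.29 for *Mup9*, 0.34 for *Mt1* and 0.39 for *Mt2*.

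Replicate numbers in the labels do not pair the livers. The correlations of same-numbered deviations were −0.028, −0.004, 0.098, 0.110, −0.055 and 0.192, and 2 of 6 livers correlated best with their own number. With a replicate block 2014 genes were called, 1128 higher and 886 lower.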
